A study of Mus musculus with 6 samples.

Results

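Mitosis and spindle genes are described here across mammary glands of female bitransgenic mice at 10 weeks and at 5 weeks of age. The group held 38 genes, chosen by name for their part in entering mitosis, building the spindle, separating chromosomes and dividing the cell, out of 18193 genes with a named probe set on the array. Each gene was represented by its brightest probe set, the one with the highest mean of log2(signal + 32) over all 6 pools. All 38 had a probe set and all 38 passed the filter on dim probe sets, so all were tested.

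Both ages were LH × MMTV-neu animals, LH being the spelling of the labels. In MMTV-neu mice a mouse mammary tumour virus promoter drives the neu (Erbb2) oncogene in mammary epithelium. Bitransgenic animals of each age carried both transgenes, and no glands without them were analysed here. Each age had 3 arrays, each of pooled RNA from 3 animals, so that 9 animals stood behind each age. The arrays read RNA of the mammary gland as the labels name it, so fewer cells of a type and less RNA per cell cannot be told apart. Within an age, 10-week pool 1 stood apart in skeletal muscle genes and 5-week pool 2 in lymphocyte genes.

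Mitosis is run by the kinase Cdk1 with its cyclins, which switches on a programme of kinases, motors and ubiquitin enzymes. Most of these genes are transcribed late in the cell cycle, when the factor Foxm1 and the MuvB complex act at their promoters, and they are kept off in resting cells by the DREAM complex. In the mammary gland their transcripts come from whichever cells are dividing, which at puberty are mainly those of growing ducts and end buds and later those of budding alveoli.

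Most of the 38 genes did not pass the test between ages. At 10 weeks, 2 were higher (Foxm1 and Tpx2) and 3 were lower (Anln, Kif23 and Top2a), by limma at a Benjamini-Hochberg adjusted p of 0.05 over all probe sets tested. These 5 calls made up 13.2% of the group, against 34.1% of the 13002 genes tested (15.3% higher and 18.7% lower). The pools of the ages did not overlap for 3 genes that were above and 3 that were below at 10 weeks, or 15.8% of the group, against 50.3% of all genes tested (24.0% above and 26.3% below). The median log2 difference, 10 weeks minus 5 weeks, was 0.04 over the 38 genes and -0.00 over all genes tested, and 86.8% of the group differed by less than 0.5 on the log2 scale, against 68.7% of all genes tested. For all 33 genes that were not called, the 95% interval of the difference lay between -1 and 1, as it did for 92.9% of the uncalled genes of the whole array. The pools of an age differed somewhat more in these genes than in others, with a median standard deviation within an age of 0.22 on the log2 scale against 0.17 over all genes tested. The genes compared were not matched for signal level.

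**Figure D1:**
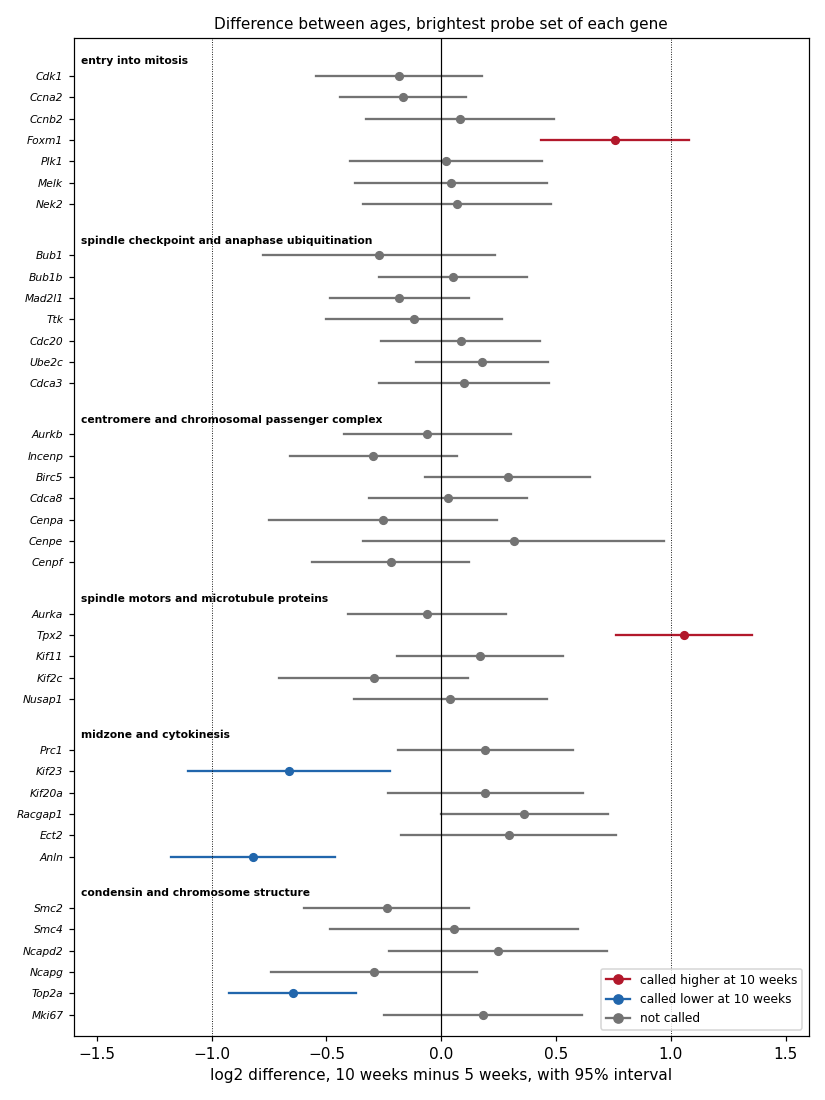
Log2 difference (10 weeks minus 5 weeks) of each of the 38 genes by role, with its 95% interval from limma; red marks genes called higher, blue genes called lower and grey genes not called, and dotted lines stand at -1 and 1. The called genes are Foxm1, Tpx2, Kif23, Anln and Top2a, and each grey interval lies between the dotted lines.

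The promoters of these genes are shown because they carry what the group has in common in sequence. RefSeq's table for GRCm38.p6, with 250 bases before and 50 after a gene's start, held 31 of the 38 genes; Aurkb, Ccna2, Foxm1, Incenp, Kif20a, Smc4 and Tpx2 were not matched. The letters TTTGAA or TTCGAA, those of the element at which the DREAM and MuvB complexes are known to bind, were searched on both strands and found in 25 of 31 promoters (80.6%), against 18.2% of 17491 promoters of protein-coding genes. The letters CCAAT, the box bound by the factor NF-Y, were found on either strand in 25 of 31 (80.6%), against 39.0% of all. Both were found in 23 of 31 (74.2%), against 7.43% of all, and a match of the first overlapped a match of the second in 1 place among the 31. Below are the promoters of the 3 genes that were lower at 10 weeks and, beside them, that of Cdk1, which was not called. They are written 5′ to 3′ along the gene, with matches on either strand in capitals. Top2a holds more matches than the others, and Anln holds TTTGAA but no CCAAT.
Top2a, chr11:99024140-99024439, minus strand: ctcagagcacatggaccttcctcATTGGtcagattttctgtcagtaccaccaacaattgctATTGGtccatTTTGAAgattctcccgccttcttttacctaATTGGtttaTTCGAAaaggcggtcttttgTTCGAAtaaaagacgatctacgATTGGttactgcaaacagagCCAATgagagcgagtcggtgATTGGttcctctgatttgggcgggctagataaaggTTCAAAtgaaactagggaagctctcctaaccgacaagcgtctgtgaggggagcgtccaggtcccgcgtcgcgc
Kif23, chr9:61946750-61947049, minus strand: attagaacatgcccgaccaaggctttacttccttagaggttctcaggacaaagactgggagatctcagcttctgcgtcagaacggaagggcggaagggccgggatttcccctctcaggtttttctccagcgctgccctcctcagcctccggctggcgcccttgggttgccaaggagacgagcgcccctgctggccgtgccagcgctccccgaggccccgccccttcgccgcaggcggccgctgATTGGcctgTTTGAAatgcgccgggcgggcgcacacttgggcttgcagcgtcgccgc
Anln, chr9:22389157-22389456, minus strand: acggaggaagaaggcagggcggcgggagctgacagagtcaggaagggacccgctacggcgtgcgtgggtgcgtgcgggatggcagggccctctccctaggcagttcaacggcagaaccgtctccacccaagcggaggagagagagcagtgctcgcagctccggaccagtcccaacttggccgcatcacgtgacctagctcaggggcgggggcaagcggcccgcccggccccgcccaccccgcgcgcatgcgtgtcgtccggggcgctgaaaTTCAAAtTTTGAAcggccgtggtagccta
Cdk1, chr10:69352863-69353162, minus strand: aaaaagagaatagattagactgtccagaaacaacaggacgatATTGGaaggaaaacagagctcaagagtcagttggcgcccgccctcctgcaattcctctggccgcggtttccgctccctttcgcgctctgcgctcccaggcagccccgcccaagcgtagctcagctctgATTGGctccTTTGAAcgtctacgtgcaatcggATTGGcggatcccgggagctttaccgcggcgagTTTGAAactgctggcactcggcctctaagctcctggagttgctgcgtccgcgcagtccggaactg
A match is only a run of letters, and binding was not measured.

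Among the genes that bring the cell into mitosis, 1 of 7 (14.3%) was called, against 34.1% of all genes tested. Foxm1, the forkhead factor that drives late cell cycle transcription, had signals of 733.8, 695.6 and 553.7 in the 10-week pools, against 395.1, 372.1 and 359.2 in the 5-week pools. Every 10-week pool lay above every 5-week pool. The log2 difference was 0.76 ± 0.14 (SE, n = 3 pools each), with a limma adjusted p of 0.00453. Cdk1, the kinase itself, had 796.6, 864.2 and 889.3 at 10 weeks, against 1125.8, 751.2 and 1074.5 at 5 weeks, and the ages overlapped. Its log2 difference was -0.18, with a 95% interval from -0.54 to 0.18. Its partners Ccna2, the cyclin of S phase and early mitosis, and Ccnb2, a cyclin of mitosis, had log2 differences of -0.17 and 0.08. Plk1, the polo kinase of mitotic entry and spindle poles, averaged 379 ± 62.3 at 10 weeks and 375 ± 80.5 at 5 weeks (SD, n = 3 pools each), a log2 difference of 0.02. Nek2, a centrosome kinase, and Melk, a kinase of dividing progenitor cells, had log2 differences of 0.07 and 0.04. So Foxm1 RNA, on its brightest probe set, passed the test and the cyclins and kinases listed with it did not. Whether its difference was unlike theirs was not tested.

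On their brightest probe sets, none of the 7 genes of the spindle checkpoint and of anaphase ubiquitination was called by limma. None of these probe sets had an unadjusted p under 0.05. Cdc20, which activates the anaphase-promoting complex and was read on an x_at probe set, had signals of 1576.2, 1628.3 and 1372.6 at 10 weeks, against 1456.3, 1157.8 and 1744.6 at 5 weeks. These ranges overlapped, and the log2 difference was 0.08 with an interval from -0.26 to 0.43. A second Cdc20 probe set, not an x_at one, differed by -0.31 and was not called. The checkpoint proteins Bub1, Bub1b and Mad2l1 and the checkpoint kinase Ttk had log2 differences of -0.27, 0.05, -0.18 and -0.12. Ube2c, the ubiquitin-conjugating enzyme of the anaphase-promoting complex, differed by 0.18, with 1094 ± 121 at 10 weeks and 962 ± 96.0 at 5 weeks (SD, n = 3 pools each). Cdca3, which helps degrade a mitotic inhibitor, differed by 0.10 on its brightest probe set. A second Cdca3 probe set, an x_at one, was called higher (log2 difference 1.16, limma adjusted p = 0.00564).

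None of the 7 centromere and chromosomal passenger genes was called on its brightest probe set either, and again none of these probe sets had an unadjusted p under 0.05. The passenger complex holds the kinase Aurkb, its scaffold Incenp, and Birc5 and Cdca8, which place it at centromeres. Birc5 had 680.6, 995 and 698.6 in the 10-week pools, against 642.2, 595.3 and 659.6 in the 5-week pools. The ages did not overlap, and 10-week pool 2 stood highest, but the log2 difference of 0.29 ± 0.16 (SE, n = 3 pools each) did not pass the test (limma adjusted p = 0.205). Aurkb, Cdca8 and Incenp differed by -0.06, 0.03 and -0.30, and Incenp was called lower when 5-week pool 2 was left out (log2 difference -0.47, limma adjusted p = 0.0384). Cenpa, the histone H3 variant that marks centromeres, differed by -0.25, Cenpf, a kinetochore protein, by -0.22, and Cenpe, the kinetochore motor, by 0.32. A second Cenpa probe set, an x_at one, was called higher (log2 difference 0.80, limma adjusted p = 0.0459). Cenpe had the widest interval of the 38 genes, from -0.34 to 0.97, with 148.5 in 10-week pool 1 against 270.9 and 313.3 in the other 10-week pools.

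Of 5 spindle motors and microtubule proteins, 1 (20%) was called, against 34.1% of all genes tested. Tpx2, which activates Aurka and nucleates spindle microtubules, had signals of 699.6, 786.9 and 796.7 at 10 weeks, against 317.9, 385.4 and 344.9 at 5 weeks. The 10-week pools all lay above the 5-week pools. Its log2 difference of 1.06 ± 0.13 (SE, n = 3 pools each) was the largest of the 38 genes, with a limma adjusted p of 0.000567. Aurka itself, the kinase of spindle poles, averaged 379 ± 18.8 at 10 weeks and 399.9 ± 63.7 at 5 weeks (SD, n = 3 pools each), a log2 difference of -0.06. Kif11, the motor that pushes spindle poles apart, Kif2c, which depolymerises microtubules at centromeres, and Nusap1, which bundles spindle microtubules, differed by 0.17, -0.29 and 0.04.

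Of the 6 genes of the spindle midzone and of cytokinesis, 2 (33.3%) were called, close to the 34.1% of all genes tested. Both were lower at 10 weeks. Anln, the anillin scaffold of the contractile ring, had 297.5, 322.9 and 301.4 in the 10-week pools, against 531.7, 489.2 and 699.8 in the 5-week pools. All 10-week pools were below all 5-week pools, and the 10-week values lay close together. The log2 difference was -0.82 ± 0.16 (SE, n = 3 pools each), with a limma adjusted p of 0.00501. Kif23, the motor of the centralspindlin complex, had 174, 275 and 239.8 at 10 weeks, against 390.8, 313.8 and 436.2 at 5 weeks. The ages did not overlap, with 10-week pool 1 lowest. The log2 difference was -0.66 ± 0.19 (SE, n = 3 pools each), with a limma adjusted p of 0.0315.

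The Kif23 call was lost without 10-week pool 1 (log2 difference -0.50, limma adjusted p = 0.0999), 10-week pool 3 (-0.70, 0.0623), 5-week pool 1 (-0.64, 0.0843) or 5-week pool 3 (-0.57, 0.0970), and with no filter on dim probe sets (adjusted p = 0.0577). The calls of Foxm1, Tpx2, Anln and Top2a held whichever pool was left out. Racgap1, the partner of Kif23 in centralspindlin, differed by 0.36 on its brightest probe set and did not pass the test (limma adjusted p = 0.126). Its second probe set was called lower, as Kif23 was (log2 difference -0.62, limma adjusted p = 0.0449). Ect2, the exchange factor that centralspindlin recruits, differed by 0.29 and was called higher only when 5-week pool 1 was left out (log2 difference 0.53, limma adjusted p = 0.0451). Prc1, which bundles midzone microtubules, and Kif20a, a midzone motor, each differed by 0.19.

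In the last group, condensin and chromosome structure, 1 of 6 (16.7%) was called, against 34.1% of all genes tested. Top2a, the topoisomerase that untangles sister chromatids, had 560.9, 675.7 and 592.1 at 10 weeks, against 1038.9, 902.6 and 970.5 at 5 weeks. All 10-week pools lay below all 5-week pools. The log2 difference was -0.65 ± 0.12 (SE, n = 3 pools each), with a limma adjusted p of 0.00469. Mki67, the surface protein of mitotic chromosomes used to mark cycling cells, had 1531.3, 1357.4 and 1213.8 in the 10-week pools, against 1598.4, 1173.8 and 911.6 in the 5-week pools. The ages overlapped, and its 95% interval ran from -0.25 to 0.61 around a log2 difference of 0.18. The condensin core genes Smc2 and Smc4 differed by -0.24 and 0.06, and the condensin I subunit genes Ncapd2 and Ncapg by 0.25 and -0.29. Smc4 had 759.9 in 5-week pool 3, against 1597.4 and 1335.7 in the other 5-week pools, while its 10-week signals were 1389.2, 1137.9 and 1161.5. Its lowest 5-week value was thus in the same pool as the lowest 5-week value of Mki67.

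**Figure D2:**
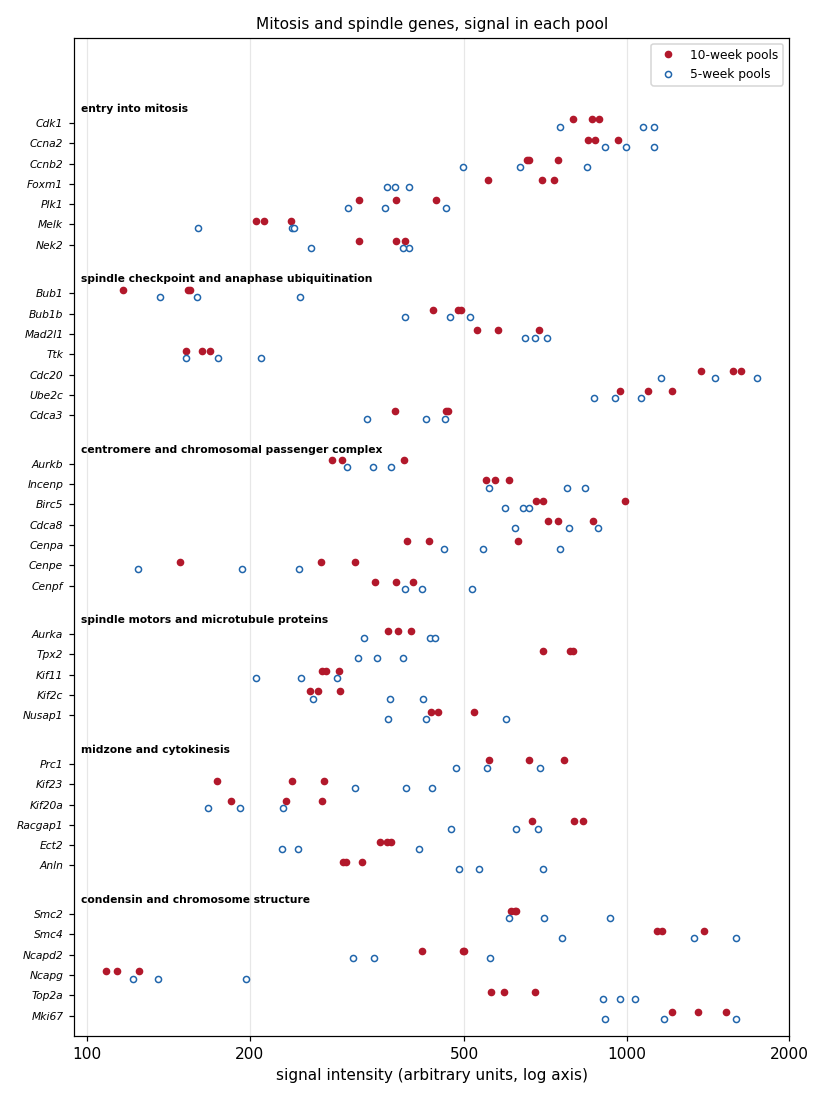
Signal of each of the 38 genes in each pool on a log axis, in arbitrary units; filled red points are the 3 10-week pools and open blue points the 3 5-week pools. The red and blue points are apart for Foxm1, Birc5 and Tpx2 (10-week pools above) and for Kif23, Anln and Top2a (10-week pools below).

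Different probe sets of the same gene did not always give the same answer. The 38 genes had 91 probe sets, of which 67 were tested, and 19 genes had at least 2 tested. Of the 67, 6 were higher and 4 lower at 10 weeks, against 28.8% of the 27022 probe sets tested (13.4% higher and 15.3% lower). Within a gene the differences spread by over 1 on the log2 scale for 3 of the 19 genes, namely Tpx2, Cdca3 and Cenpa, against 6.94% of the 5921 genes with several tested probe sets. The median spread was 0.35 for the 19 genes and 0.35 for the 5921. A probe set ending in x_at holds probes that also match other transcripts, and 4 of the 6 probe sets that were higher were of this kind. The brightest probe sets of Cdc20, Aurkb, Incenp and Kif2c, none of them called, were also x_at ones. Of 8 such probe sets tested in the group, 4 were higher, against 18.2% of the 1669 x_at probe sets tested, and of the other 59, 2 were higher, against 13.1% of the other probe sets tested.

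Tpx2 showed the disagreement most plainly. Its second probe set, an x_at one, had 764.7, 838.1 and 783.3 at 10 weeks, against 315.8, 462.1 and 242.9 at 5 weeks, a log2 difference of 1.19 (limma adjusted p = 0.00276). The brightest probe set, which is not an x_at one, went the same way. The other 2 differed by 0.11 and -0.14 and were not called, with 302 ± 37.1 at 10 weeks and 276 ± 29.5 at 5 weeks for the first (SD, n = 3 pools each). Which transcripts the probe sets of Tpx2 detect was not examined here, so its rise rests on 2 probe sets of 4.

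Foxm1 had 2 tested probe sets, both higher. The second, an x_at one, had 568.4, 560.9 and 415.6 at 10 weeks, against 135.5, 144.2 and 167.8 at 5 weeks, a log2 difference of 1.59 (limma adjusted p = 0.000297). Its other 2 were too dim to be tested, and the brighter of them averaged 52.4 ± 16.6 at 10 weeks and 101 ± 55.5 at 5 weeks (SD, n = 3 pools each). The second probe set of Cdca3, also an x_at one, had 638.8, 451.7 and 327.3 at 10 weeks, against 159.9, 206.4 and 196.9 at 5 weeks. That is a log2 difference of 1.16 (limma adjusted p = 0.00564) in a gene whose brightest probe set differed by 0.10. For Cenpa the second probe set rose by 0.80 (limma adjusted p = 0.0459), while the brightest differed by -0.25.

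Among the 19 genes with several tested probe sets, the second ones of Racgap1, Bub1b, Prc1 and Top2a had every 10-week pool below every 5-week pool. Those of Foxm1, Tpx2, Cdca3 and Cenpa had every 10-week pool above. Over all genes tested, on the brightest probe set, the shares were 26.3% below and 24.0% above. The second of Racgap1 had 134.1, 216.4 and 185.9 at 10 weeks, against 277.2, 249.3 and 340.9 at 5 weeks. The ages did not overlap, and the log2 difference was -0.62 (limma adjusted p = 0.0449), opposite in sign to the brightest. The second of Bub1b had 133.6, 123.6 and 97.5 at 10 weeks, against 195.9, 137.2 and 259.5 at 5 weeks, a log2 difference of -0.58 (limma adjusted p = 0.0853). The second of Prc1 had 183.8, 135 and 147.2 at 10 weeks, against 209, 188.7 and 376 at 5 weeks, also a log2 difference of -0.58 (limma adjusted p = 0.109). Neither passed the test, and both were opposite in sign to the brightest probe set of their gene. The second of Top2a differed by -0.49 in the same direction as the first and just missed the threshold (limma adjusted p = 0.0509). Anln and Kif23 had no second probe set bright enough to be tested. Of the 38 genes, 18 overlap another gene of any type, on either strand, in the RefSeq annotation. The share over all genes was not counted. Among the called genes, Foxm1 overlaps Tex52, Tpx2 overlaps Mir5622, Anln overlaps 9530077C05Rik and Top2a overlaps LOC115487886, while Kif23 overlaps none. Signal shared with such a gene was not tested. Taking the second probe set of each gene where it had another, a setting chosen after the data were seen, gave 4 higher and 1 lower, and averaging a gene's probe sets gave 2 higher and 0 lower by limma, with Cdca3 and Tpx2 as the higher ones.

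**Figure D3:**
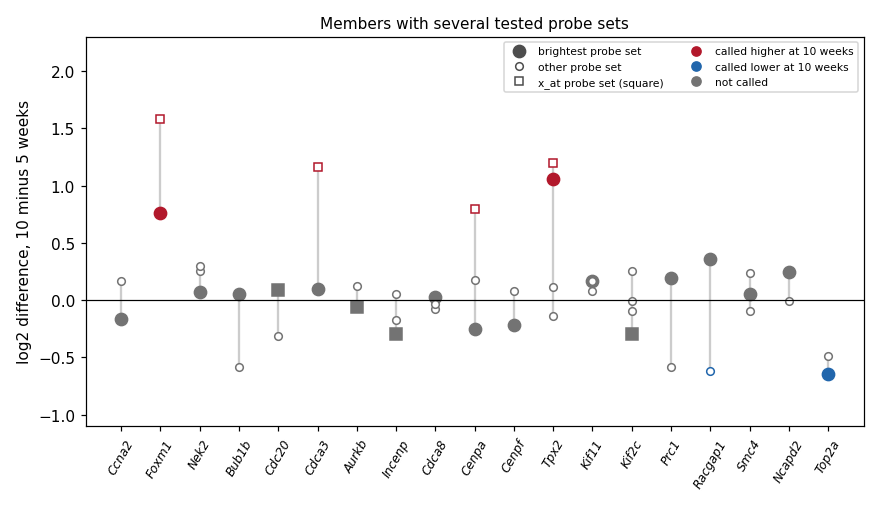
Log2 difference (10 weeks minus 5 weeks) of every tested probe set of the 19 genes that had several; large filled symbols are the brightest probe set, small open symbols the others, squares those ending in x_at, red called higher, blue called lower and grey not called. Tpx2, Cdca3 and Cenpa each span over 1 on the log2 scale, and the 4 red squares belong to Foxm1, Cdca3, Cenpa and Tpx2.

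The pools differed in these genes within an age. Among the 5-week pools, pool 2 had the lowest value for 28 of the 38 genes, against 35.7% of all genes tested. Pool 1 had the highest for 21, against 30.4% of all genes tested. Among the 10-week pools, pool 1 had the lowest value for 24 and pool 2 the highest for 22, each against 33.3% of all genes tested. The mean level of the 38 genes, on the log2(signal + 32) scale, was 8.92, 9.05 and 8.95 at 10 weeks and 9.12, 8.79 and 9.00 at 5 weeks. The ages overlapped in this mean, and the range was wider among the 5-week pools. Without 5-week pool 2, the median difference of the group was -0.11 and 2 genes were higher and 4 lower.

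That pool also stood apart in lymphocyte genes. The mean level of 8 measured genes listed for B cells and germinal centres, Cxcl13 and Cd74 among them, was 9.67 in 5-week pool 2. It was 7.57 and 7.86 in the other 5-week pools, while the 10-week pools had 7.29, 7.84 and 8.49. Cd79a, a component of the B cell receptor, had signals of 69.6, 53.8 and 174.6 at 10 weeks, against 68.5, 756.4 and 87.2 at 5 weeks, with 5-week pool 2 highest. The mean of 6 T cell genes was 8.70 in that pool and 6.62 to 7.63 in the others. The part of these cells in the values of mitotic genes was not tested.

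**Figure D4:**
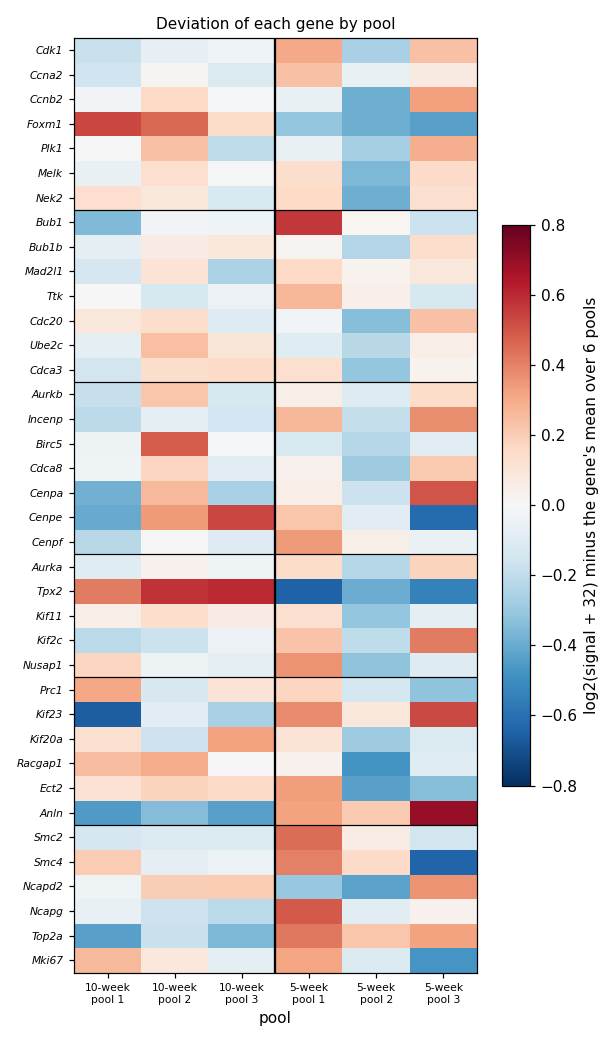
Level of each of the 38 genes in each pool as its deviation from the gene's mean over the 6 pools, on the log2(signal + 32) scale, with the 10-week pools on the left and lines between the roles. The column of 5-week pool 2 is mostly blue, with the lowest 5-week value for 28 of 38 genes, and Foxm1 and Tpx2 are red at 10 weeks and blue at 5 weeks.

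Several lists of cell type markers differed between the ages. Of all genes tested, 34.1% were called (15.3% higher and 18.7% lower at 10 weeks). Every 10-week pool lay above every 5-week pool for 24.0% of them and below for 26.3%. All 12 luminal epithelial markers lay higher in every 10-week pool and 10 were called, with a median log2 difference of 0.99, and their mean level was 12.32 to 12.54 at 10 weeks and 11.21 to 11.58 at 5 weeks. The gland's defining genes were present, with Krt8, a keratin of luminal cells, at 8906 ± 751 at 10 weeks and 6881 ± 916 at 5 weeks (SD, n = 3 pools each). Of 11 fibroblast and collagen markers 10 were lower at 10 weeks, with a median of -0.93, and of 9 endothelial markers 7 were lower, with a median of -0.76. Of 8 adipocyte markers 5 were lower, with a median of -0.94, and of 10 milk protein genes 6 were higher, with a median of 0.86. Basal and myoepithelial markers gave 5 higher and 2 lower of 9, and macrophage markers 3 higher and 3 lower of 9. All 12 skeletal muscle markers had every 10-week pool below every 5-week pool, and 3 (25%) were called lower. The mean levels of the 12 were 9.06, 12.13 and 12.03 at 10 weeks and 13.35, 12.50 and 13.46 at 5 weeks. Both the muscle level and Kif23 were lowest in 10-week pool 1. With the muscle level as a covariate, which does not overlap between the ages, 1 of the 38 genes was higher (Tpx2) and 0 were lower by limma. Calls over all genes tested fell with this covariate too, from 1992 higher and 2436 lower to the counts given in the last section. The part of these shifts in the calls of mitotic genes was not tested.

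Other genes of the pathway, from lists of 148 genes of which 143 were measured and 131 tested, gave 8 higher and 16 lower, or 18.3% called against 34.1% of all genes tested. In the list of other mitotic kinases, cyclins and regulators, 2 of 11 tested (18.2%) were lower, against 18.7% of all genes tested. None was higher. These were Bora, which activates Aurka and Plk1 (log2 difference -0.62, limma adjusted p = 0.0179), and Cdc25b, the phosphatase that activates Cdk1 (-0.47, 0.0315). Of 25 tested kinetochore and checkpoint genes, 1 (4%) was called. It was Mis12, which joins the kinetochore to the centromere, and it was lower (-0.75, limma adjusted p = 0.0177). Of 19 tested spindle genes 2 were higher and 1 lower, or 15.8% called against 34.1% of all genes tested. Stmn1, which destabilises microtubules, had 5910 ± 65.8 at 10 weeks and 4345 ± 581 at 5 weeks (SD, n = 3 pools each), and Tubg1, the gamma tubulin of spindle poles, had a log2 difference of -0.74. Cit, the citron kinase of cytokinesis, was higher by 0.45 on an x_at probe set, while its second probe set had a log2 difference of -1.09 that did not pass the test (limma adjusted p = 0.0585).

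In the anaphase-promoting complex list 2 of 17 genes were higher and 4 lower, or 35.3% called, close to the 34.1% of all genes tested. Pttg1, the securin that holds the separase back, and Ube2s, an enzyme that extends ubiquitin chains, were higher by 0.56 and 0.76, and the subunits Anapc13 and Cdc23 were lower, with log2 differences of -0.55 and -0.45. Of 14 tested cohesin and other condensin genes, 1 (7.14%) was called. It was Wapl, the factor that releases cohesin from chromatin, with 1689 ± 232 at 10 weeks and 1064 ± 136 at 5 weeks (SD, n = 3 pools each). Among 19 DREAM and E2F regulators 3 were higher and 1 lower, or 21.1% called against 34.1% of all genes tested. Rbbp4, a subunit of MuvB, and Rb1, the retinoblastoma protein, were higher by 0.49 and 0.55, and Rbl2, the pocket protein p130 of DREAM, had a log2 difference of -0.40. Of 26 tested DNA replication genes 7 (26.9%) were lower, against 18.7% of all genes tested, and none was higher. Counting both directions, 34.1% of all genes tested were called. The median log2 difference of the DNA replication genes was -0.27 over the 28 measured. Mcm5 and Mcm3, subunits of the replicative helicase, were both lower, Mcm5 at 0.465 times its 5-week level on an x_at probe set (limma adjusted p = 0.00282) and Mcm3 with a log2 difference of -0.90 (limma adjusted p = 0.00809). Mcm5 had 438.6, 573.2 and 507.9 at 10 weeks, against 1066.7, 889.4 and 1473.9 at 5 weeks, so all 10-week pools were below all 5-week pools. Whether replication and mitosis genes differed in their response was not tested.

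For 8 of these genes the call was lost without at least 1 pool, while the log2 difference kept its sign: it ran from -0.66 to -0.57 for Bora, -0.53 to -0.42 for Cdc25b, -0.91 to -0.65 for Mis12 and 0.40 to 0.51 for Cit over the fits that left out a pool. It ran from 0.46 to 0.68 for Pttg1, 0.57 to 1.05 for Ube2s, -0.54 to -0.38 for Cdc23 and -0.48 to -0.32 for Rbl2. The limma adjusted p of Bora was 0.0507, 0.0503 and 0.0572 without 10-week pool 1, 10-week pool 2 or 5-week pool 2, and that of Mis12 was 0.0599, 0.0597 and 0.0593 without 10-week pool 1, 10-week pool 2 or 5-week pool 3. Cdc25b was called only with all pools or without 10-week pool 2, and its adjusted p was 0.1001 and 0.0824 without 10-week pool 1 or 3, and 0.101, 0.0586 and 0.0537 without 5-week pool 1, 2 or 3. Cit lost its call without 10-week pool 1 (0.0663), 10-week pool 3 (0.0776) or 5-week pool 1 (0.0705), and Pttg1 without 10-week pool 1 (0.0548) or 10-week pool 2 (0.0552). For Ube2s the adjusted p was 0.0787, 0.0644 and 0.0709 without 10-week pools 1, 2 and 3, and 0.0814 and 0.0874 without 5-week pools 2 and 3. Cdc23 lost its call without 10-week pool 1 (0.0887), 10-week pool 3 (0.0896), 5-week pool 1 (0.0885) or 5-week pool 3 (0.0889). Rbl2 lost its call without 10-week pool 1 (0.144), 2 (0.0723) or 3 (0.0784) or without 5-week pool 2 (0.103) or 3 (0.125). Those of Stmn1, Tubg1, Anapc13, Wapl, Rbbp4, Rb1, Mcm5 and Mcm3 held whichever pool was left out, but not under every other processing alternative. Of 20 alternatives, 3, 3 and 4 lost the calls of Stmn1, Wapl and Rbbp4. Over these 20, their log2 differences fell as low as 0.03, 0.11 and 0.13. Tubg1, Anapc13, Mcm5 and Mcm3 each lost the call under 1, and Rb1 under 2, with its sign turned under 1 more.

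**Figure D5:**
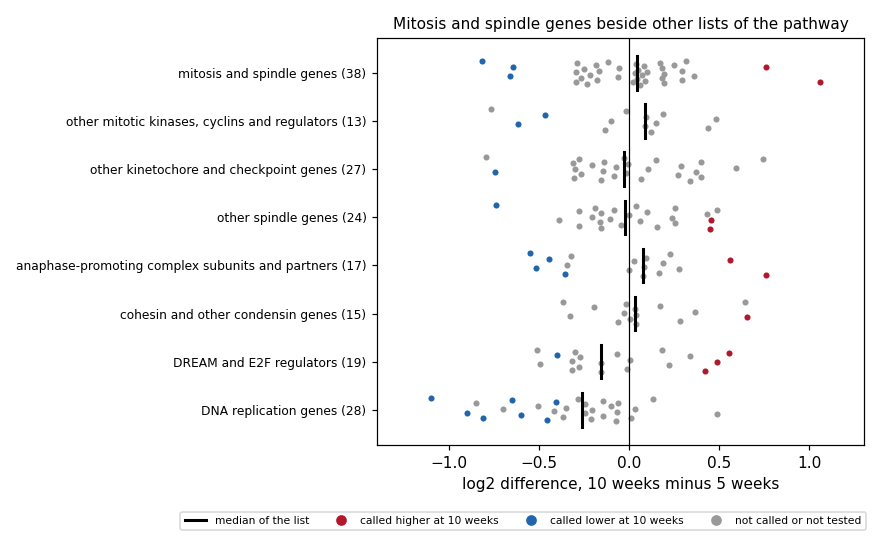
Log2 difference (10 weeks minus 5 weeks) of each gene in the mitosis and spindle group and in 7 other lists of the pathway, with the number of measured genes in parentheses; black bars are medians, red points called higher, blue called lower and grey not called or not tested. The median is 0.04 for the mitosis and spindle genes and -0.27 for the DNA replication genes, where the 7 called points are all blue.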

How the data were processed

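Total RNA of mammary gland was labelled with biotinylated UTP, per the labels, and read on 6 arrays. The authors deposited 1 linear intensity for each probe set and array, whose mean without the lowest and highest 2% was 499.9 on each array. The signal algorithm, detection calls, scan dates and batches are not given in the sources used here. Probe sets numbered 45101, 64 of them controls that were dropped. The platform annotation gave 1 symbol to 34945 of the remaining 45037, several to 932 and none to 9160, and symbols were updated through RefSeq's GRCm38.p6 gene table, which matched 34741. Median signals ran from 156.4 to 172.5. The number of arrays limits the precision.

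A floor of 1 was applied before log2(value + 32), a scale on which dim genes show smaller differences than they have. Array medians lay within 0.118 on the log2 scale, so no normalization was added. The dimmest 40% of probe sets by mean level were not tested, which kept 27022. limma 3.58.1 in R 4.3.3 (lmFit, eBayes with a variance trend, 4 residual degrees of freedom, two-sided) compared 10 with 5 weeks, and the scripts were tested on simulated data. Replicate numbers follow accession order and pair no pools. Because each age has only 3 pools, an exact permutation test could not give a p under 0.1. The p-values measure the spread between pools of different animals and the array step together. All 38 members, the 2 called genes with the smallest adjusted p in each direction of every other list, and the markers were named by rule. The members and lists were chosen with earlier results of these data known. Plots used Python 3.11.15 and matplotlib 3.10.9.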

Additional observations from a re-analysis of the deposited data

How the results depend on the processing

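The count of 2 higher and 3 lower mitosis and spindle genes did not change with an offset of 1, 16 or 100, the stricter filter, quantile normalization, equal array medians, no variance trend, robust variance, array weights or, chosen after the data were seen, without x_at probe sets. With no filter it was 2 and 2. Leaving out a pool gave 2 to 3 higher and 2 to 4 lower, with a median difference of -0.11 to 0.07. With the muscle covariate it was 1 and 0, with 783 for all genes higher at 10 weeks, 1010 for all genes lower at 10 weeks, and 1 and 0 for other pathway genes. Averaged probe sets gave 0 lower, and 4 other pathway genes higher. The second probe set gave 4 higher and 1 lower, and 1 other pathway gene higher. Over all genes, leaving out a pool gave 1405 to 1759 higher and 1871 to 2036 lower. Quantile normalization gave 10 lower other pathway genes, and leaving out a pool gave 5 to 9 higher and 6 to 14 lower. Where a call was made on either probe set or both, signs turned with the second probe set for Cenpa (0.80), Racgap1 (-0.62), Anln (0.20, untested), Ube2s (-0.21, untested), Rb1 (-0.24, untested) and Cit (-1.09, also without x_at probe sets), and with averaging for Cit (-0.18). With the second probe set, signs also turned for Aurkb, Bub1b, Ccna2, Cdc20, Cdca8, Cenpe, Cenpf, Ncapd2, Prc1 and Smc2, not called on either. Leaving out a pool turned the signs of Aurka, Aurkb, Bub1b, Ccnb2, Cdc20, Cdca3, Cdca8, Melk, Mki67, Nek2, Nusap1, Plk1 and Smc4. None of these was called on its brightest probe set. The cause was not tested. Among the 33 uncalled genes, 28 kept their status under all 20 alternatives. No paired analysis was possible because the labels give no shared replicate numbers.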
